A study of Mus musculus with 45 samples.

Results

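The 5 mouse genes described here had a higher chromatin accessibility score in Stag2 knockout (KO) than in wild-type (WT) erythroblasts, with the larger gain in nuclei of the Late class. They are 2900005J15Rik, Gm2762, Gm20750, Cog6 and Mir802, 5 of the 24333 genes in the deposited gene score table. These 5 had been chosen on their KO minus WT differences in Late and Int nuclei, so those differences are given as a description and carry no test. Every gene starting within 500 kb of one of them was taken as well, which gave 35 neighbours and 40 genes in all at 4 loci. Gm20750 and Cog6 share a locus on chromosome 3, where their starts lie 89557 bp apart, and the other genes each have a locus of their own.

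The values come from 6 of the 45 samples of the series, single-nucleus ATAC libraries of Ter119+ erythroblasts (red cell precursors that carry the surface protein Ter119) made on the 10x Genomics multiome platform. The WT group was 3 libraries from Stag2 WT mice and the KO group 3 libraries from Stag2 KO (∆) mice, taken after an interval of 6 to 8 weeks from their final pIpC, a double-stranded RNA analogue that triggers an interferon response and is commonly given to switch on an interferon-inducible Cre. The design text names pIpC for both genotypes, so the controls carry the treatment too. The Cre driver, the strain, the sex and the age of the animals are not given in the sources used here, and nothing in them says whether each library is 1 animal, so a p-value here measures only the spread between these libraries. The RNA of the same nuclei was not analysed here.

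The protein Stag2 belongs to cohesin, which extrudes chromatin loops as a ring and, with CTCF, sets the borders within which enhancers reach promoters. Its paralogue Stag1 can take its place in the ring. During red cell maturation the nucleus condenses, most genes close, and the transcription factor Gata1 keeps the erythroid program open. A gene score adds up the transposase-accessible signal at and around a gene in each nucleus, so it reports open chromatin and not RNA. In such a score neighbouring genes can share fragments, and a gene with no activity of its own can score through a neighbour or an enhancer.

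Of the 5 genes, 3 are annotated by RefSeq as long non-coding RNA genes, 1 as protein coding and 1 as a microRNA gene. In mm10, whose coordinates agreed at both ends with the RefSeq table of GRCm38.p6 for all 5, 2900005J15Rik lies at chr5:25100975-25103007 on the plus strand and starts 333 bp from the start of Prkag2, which runs the other way. Gm2762 lies at chr13:53393689-53455630 on the plus strand. Gm20750 lies at chr3:52906756-52927666 and Cog6 at chr3:52982123-53017223, both on the minus strand. Mir802 lies at chr16:93369720-93369816 on the plus strand. No function is stated here for the long non-coding RNAs. Cog6 is a subunit of the conserved oligomeric Golgi (COG) complex, which tethers vesicles that return Golgi enzymes. Mir802 makes miR-802, a microRNA known from liver, where it bears on insulin sensitivity.

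The mature miR-802 sequences are printed because the locus with the largest gain is named for them. Capitals mark the seed (bases 2 to 8), and none of the other mouse mature microRNAs in the RefSeq table of 1738 mature sequences has either seed.
mmu-miR-802-5p (chr16:93369737-93369758): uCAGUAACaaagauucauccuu
mmu-miR-802-3p (chr16:93369775-93369796): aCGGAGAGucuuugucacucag

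The 250 bases before the start of each long gene follow, from RefSeq on GRCm38.p6, to show the sequence at each start. How far the score reached around a start is not given in the sources used here. For 2900005J15Rik, capitals mark the 168 bases that also belong to the 250 bases before the outermost RefSeq start of Prkag2 on the opposite strand. This stretch thus lies next to that start and the start of 2900005J15Rik.
2900005J15Rik (chr5:25100725-25100974, plus strand): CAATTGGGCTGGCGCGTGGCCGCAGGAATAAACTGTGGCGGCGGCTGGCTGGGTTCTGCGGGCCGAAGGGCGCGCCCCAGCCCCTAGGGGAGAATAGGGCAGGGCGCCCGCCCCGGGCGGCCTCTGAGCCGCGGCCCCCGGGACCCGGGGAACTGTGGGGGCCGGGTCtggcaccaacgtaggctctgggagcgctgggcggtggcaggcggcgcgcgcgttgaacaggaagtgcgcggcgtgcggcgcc

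In the promoters of Gm2762, Gm20750 and Cog6 below, capitals mark CG pairs, the sites of DNA methylation that are dense in CpG islands.
Gm2762 (chr13:53393439-53393688, plus strand): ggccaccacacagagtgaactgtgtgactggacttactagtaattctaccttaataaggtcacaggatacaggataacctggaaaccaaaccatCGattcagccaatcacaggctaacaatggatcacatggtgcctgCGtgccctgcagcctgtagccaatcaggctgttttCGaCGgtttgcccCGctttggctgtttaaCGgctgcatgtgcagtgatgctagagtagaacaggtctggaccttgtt
Gm20750 (chr3:52927667-52927916, minus strand): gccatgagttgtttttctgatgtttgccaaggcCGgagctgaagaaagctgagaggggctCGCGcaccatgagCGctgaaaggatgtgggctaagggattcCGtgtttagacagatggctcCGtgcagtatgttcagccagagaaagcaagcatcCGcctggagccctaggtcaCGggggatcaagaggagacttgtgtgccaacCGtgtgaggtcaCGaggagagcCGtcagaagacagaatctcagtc
Cog6 (chr3:53017224-53017473, minus strand): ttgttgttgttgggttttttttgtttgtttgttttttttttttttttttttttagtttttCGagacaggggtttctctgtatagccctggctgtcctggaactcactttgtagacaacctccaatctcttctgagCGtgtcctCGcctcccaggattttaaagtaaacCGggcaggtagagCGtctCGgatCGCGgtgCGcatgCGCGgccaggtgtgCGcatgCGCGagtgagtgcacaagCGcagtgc

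CG pairs numbered 31 in the window of 2900005J15Rik, 15 in that of Cog6, 11 in that of Gm20750 and 6 in that of Gm2762, against a median of 6 over 32536 distinct RefSeq windows of the same length. These 4 windows thus run from the median to above 94.8% of promoters, and they share no CpG-rich class. The 4 hexamers that Gata factors are known to bind (GATAA or GATAG with an A or a T before it, on both strands, overlapping matches counted separately) occurred in none of the 4 windows, while 26.5% of all windows held at least 1. That says only that these letters are not in these windows.

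The libraries held 10519 WT and 7233 KO Late nuclei, with 2971 to 4527 per WT library and 2176 to 2549 per KO library. Late nuclei had a median of 5693 to 6812 fragments in WT and 6043 to 6503.5 in KO libraries, so the depths overlapped. Int nuclei had a median of 10121 to 12877 fragments in WT and 13911 to 14998 in KO libraries, so there the KO libraries were deeper without overlap. In nuclei of 5000 to 15000 fragments the Int log2 differences of the 5 genes were 0.68 for 2900005J15Rik, 0.89 for Gm2762, 0.87 for Gm20750, 1.04 for Cog6 and 2.08 for Mir802, close to those of all Int nuclei given below. Ends in peaks made up 64.1% to 66.4% in WT and 60.3% to 61.8% in KO Late nuclei, which did not overlap, and the part of this gap in the results was not tested. The label of erythroblasts was checked on markers: 13 of 14 erythroid markers were in the table, with a mean Late score of 217 per marker and none at 0 in a library. The other marker lists had 4.97 to 31.9 per marker, beside a mean of 41.1 over all genes. The score is not known to be per length, so this is a rough check. The summed Late score of the erythroid markers was 2957 to 3060 in WT and 2567 to 2675 in KO. In KO 11 of 13 were lower (limma, adjusted p under 0.05), where 18.5% of all genes were called lower and 32.9% higher. In Int nuclei 9 of 13 were lower, where 7.10% of all genes were called lower and 12.7% higher. Markers of stem and progenitor cells summed to 41.1 to 48.0 in WT and 59.9 to 65.6 in KO Late nuclei, and 5 of 7 were higher in KO. Higher in KO were also 4 of 9 myeloid, 2 of 6 B cell, 1 of 7 T and NK cell and 1 of 6 megakaryocyte markers, and 0 of 5 mast or basophil markers, while another 1 of 6 megakaryocyte markers was lower. These counts, too, are for Late nuclei and stand beside the 32.9% of all genes called higher and 18.5% called lower there. Their denominators are markers in the table, and a marker with a mean under 5 was not tested. Mast or basophil markers averaged 4.97, with Prss34 at 16.8, so their count of 0 says little. Stem and progenitor markers averaged 7.64, and whether some passed the filter only through their KO values was not checked. No marker of the other lists was at 0 in a library either, and the part of these shifts in the results below was not tested. Barcodes shared by more than 1 library numbered 725. Stag2 itself scored 69.6 ± 1.87 in WT and 65.3 ± 2.99 in KO Late nuclei (SD, n = 3 each; log2 difference -0.091, limma adjusted p = 0.148), and a score over a whole gene does not check a deletion inside it. Stag1 was lower in KO Late nuclei (71.6 ± 4.01 against 58.9 ± 2.24, log2 difference -0.28, limma adjusted p = 0.000990).

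Against this background, each of the 5 genes had scores in Late nuclei that were about 3 to 7 times as high in KO as in WT. All values are mean gene scores of the nuclei of a class in 1 library, rescaled to a sum of 1000000 over genes, and log2 differences are on the log2(score + 1) scale, which understates the change of low scores. The level of 1 gene is not compared with that of another, since the score is not known to be per length.

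2900005J15Rik scored 13.2, 12.9 and 12.6 in the Late nuclei of WT replicates 1, 2 and 3 and 52.2, 50.4 and 47.5 in those of KO replicates 1, 2 and 3. The KO libraries lay far above the WT libraries with no overlap, and each genotype was tight. The means were 12.9 ± 0.257 and 50 ± 2.36 (SD, n = 3 each), a ratio of 3.87 and a log2 difference of 1.87. In Int nuclei, read here as intermediate, the scores were 18.6, 19.9 and 17.2 in WT and 33.6, 29.7 and 26.8 in KO. The groups were apart there too, with a ratio of 1.62 and a log2 difference of 0.66.

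Gm2762 scored 3.99, 3.34 and 3.32 in WT Late nuclei and 16.6, 19.9 and 19.4 in KO Late nuclei. All WT values lay below the minimum mean score of 5 asked of a gene, and all KO values well above it. The ratio was 5.24 and the log2 difference 2.11. Its Int scores were 7.44, 7.88 and 5.94 in WT and 12, 13.7 and 13.2 in KO, with a ratio of 1.83 and a log2 difference of 0.79. All KO values exceeded all WT values in both classes.

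Gm20750 scored 3.80, 3.99 and 4.28 in WT Late nuclei and 20.5, 21.0 and 17.1 in KO Late nuclei. The groups did not overlap, and KO replicate 3 was the lowest of the KO libraries. Here the ratio was 4.85 and the log2 difference 2.02. Its Int scores were 7.52, 7.0 and 5.45 in WT and 13.5, 12.7 and 10.0 in KO, a ratio of 1.81 and a log2 difference of 0.77. WT means of Gm2762 and Gm20750 in Late nuclei (3.55 and 4.02) lay below the minimum mean score of 5 asked over all 6 libraries, so both were kept through their KO values and had to differ.

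Cog6 scored 18.2, 20 and 16.6 in WT Late nuclei and 56.2, 56.2 and 52.4 in KO Late nuclei. The KO libraries were close to each other and far above WT. The ratio was 3.01 and the log2 difference 1.54. In Int nuclei Cog6 scored 18.1, 18.3 and 15.5 in WT and 37.1, 36.8 and 34.5 in KO, so it was already higher there, with a ratio of 2.09 and a log2 difference of 1.02.

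Mir802 scored 9.52, 5.85 and 9.32 in WT Late nuclei and 53.8, 53.8 and 59.1 in KO Late nuclei. No WT library came near a KO library. It had the largest gain of the 5, with a ratio of 6.75 and a log2 difference of 2.64. Its Int scores were 10.4, 10.6 and 9.38 in WT and 39.7, 41.8 and 54.3 in KO, a ratio of 4.46 and a log2 difference of 2.04, with KO replicate 3 the highest.

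**Figure D1:**
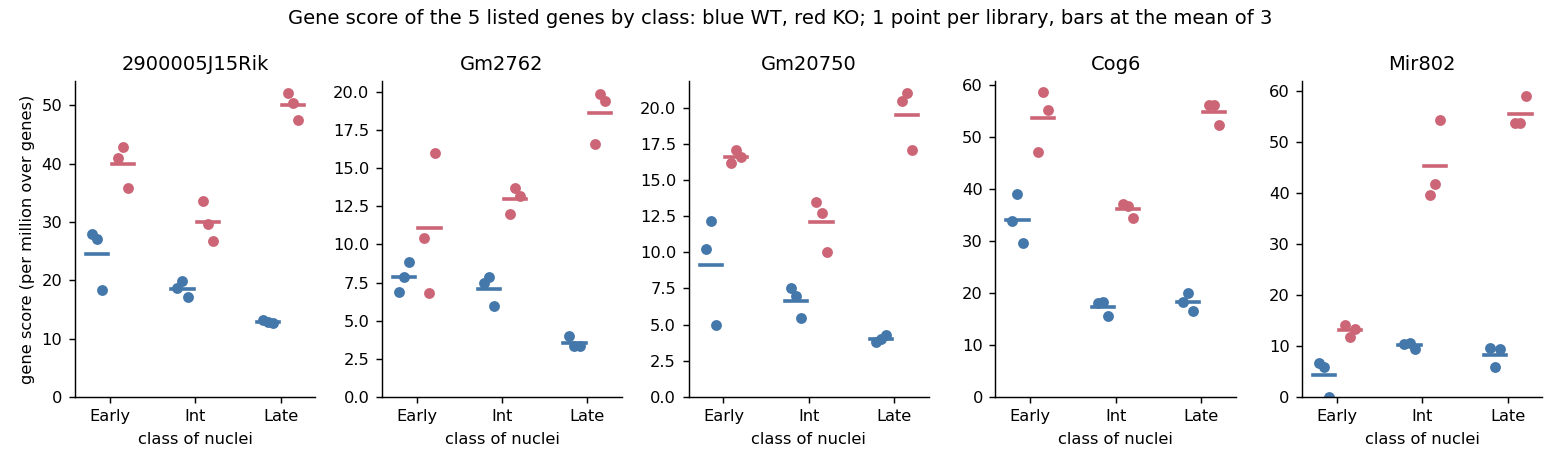
Gene score (vertical axis, from 0, own scale per gene) of the 5 genes in Early, Int and Late nuclei, with 1 point per library and bars at the mean of 3. In Late nuclei the KO points sit above the WT points for every gene, from 3.01 times for Cog6 to 6.75 times for Mir802.

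All 5 genes thus had every KO library above every WT library in Late and in Int nuclei. Of all genes tested, 36.8% of 15886 did so in Late and 22.8% of 19465 in Int nuclei, and since these contrasts chose the genes nothing is read from the count. The limma test called 32.9% of genes higher in KO in Late and 12.7% in Int nuclei (adjusted p under 0.05), and the median log2 difference of all genes was 0.052 and 0.057. Among the differences of all genes, Mir802 ranked 3, Gm2762 9, Gm20750 13, 2900005J15Rik 16 and Cog6 53 in Late nuclei. In Int nuclei the ranks were 5 for Mir802, 95 for Cog6, 215 for Gm2762, 242 for Gm20750 and 400 for 2900005J15Rik, of 19465.

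A gain found mainly in Late nuclei described the 3 long non-coding RNA genes better than the others. The Late minus Int difference of the log2 KO effect was 1.31 for Gm2762, 1.25 for Gm20750 and 1.21 for 2900005J15Rik, ranks 1, 2 and 4 of 15873 genes. For Mir802 it was 0.60 and for Cog6 0.52, ranks 264 and 424, so most of their gain was present in Int nuclei already. Without WT replicate 2 the value for Mir802 was 0.36. With a pseudocount of 5 the value was 0.89 for Gm2762 and 0.89 for Gm20750, both then below that of 2900005J15Rik. The Late WT means of Gm2762 and Gm20750 were under the minimum score of 5, so their values depend on the pseudocount. The genes were also chosen on these contrasts, so nothing is read from the ranks or their order. The median Late minus Int difference over all genes was 0.0044, and 0.195% of genes were called higher by limma for this difference (31 genes). That share is unstable: with both directions the calls numbered 35, but 0 without KO replicate 2, 819 without WT replicate 3 and 3 to 279 under the other settings that kept all libraries.

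The larger Late effect came with opposite changes from Int to Late in the 2 genotypes for the 3 long non-coding RNA genes and, by means, for Mir802. From Int to Late within a library, 2900005J15Rik changed by -0.47, -0.59 and -0.41 on the log2 scale in WT and by 0.62, 0.74 and 0.80 in KO. Gm2762 changed by -0.76, -1.03 and -0.68 in WT and by 0.44, 0.51 and 0.52 in KO, and Gm20750 by -0.83, -0.68 and -0.29 against 0.57, 0.68 and 0.71. Scores of these genes were thus lower in Late than in Int nuclei in all 3 WT libraries and higher in all 3 KO libraries. Cog6 kept its level in WT (0.0056, 0.12 and 0.091) while it was higher in Late nuclei in KO (0.59, 0.60 and 0.59). Mir802 changed by -0.12, -0.77 and -0.0086 in WT and by 0.43, 0.36 and 0.12 in KO. The median gene changed by -0.12 to -0.023 in the 6 libraries, in both genotypes alike.

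Early nuclei were not used to choose the genes, but there were few of them: 102, 235 and 20 in WT and 310, 25 and 16 in KO replicates 1, 2 and 3. 2900005J15Rik scored 28.0, 27.0 and 18.4 in WT and 40.9, 42.9 and 35.8 in KO. Cog6 scored 33.8, 39.0 and 29.6 in WT and 47.1, 58.7 and 55.3 in KO. Gm20750 scored 10.2, 12.2 and 5.00 in WT and 16.2, 17.1 and 16.6 in KO. In these genes each KO library lay above each WT library. Mir802 scored 6.66, 5.93 and 0 in WT and 14.2, 11.8 and 13.3 in KO, again with no overlap, and the value of 0 comes from the 20 Early nuclei of WT replicate 3. Gm2762 scored 6.86, 7.89 and 8.83 in WT and 10.4, 6.84 and 16.0 in KO, and here the groups overlapped. So 4 of 5 genes had all KO above all WT Early values, against 12.6% of the 19174 genes with an Early mean score of at least 5. The Early nuclei come from the same 6 libraries that chose the genes, so nothing is read from this count. Mir802, with an Early WT mean of 4.20, reached that minimum through its KO values. The log2 differences were 0.70 for 2900005J15Rik, 0.64 for Cog6, 0.87 for Gm20750, 1.91 for Mir802 and 0.38 for Gm2762. The exact two-sided permutation test gave p = 0.1 for the first 4, the smallest that 3 against 3 libraries allow, and p = 0.4 for Gm2762. Adjusted over the 5 genes these were 0.125 and 0.4, so none could pass 0.05 in this design. Without WT replicate 3 the log2 difference in Early nuclei was 0.95 for Mir802 and 0.53 for Gm20750. That of Gm2762 was 0.10 without KO replicate 3 and 0.66 without KO replicate 2, and that of Mir802 was 1.07 with a pseudocount of 5.

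The authors' clusters separate the genotypes: of Late nuclei, 95.5% of WT fell in cluster C3 and 97.3% of KO in cluster C2. A Late comparison is therefore nearly one of C2 with C3, and the minority nuclei show what each gene did where the genotypes met. These clusters were made from the same nuclei, so they too are given without a test. C2 held 188 WT nuclei, with a median of 2101 fragments against 6287 in the 7035 KO nuclei there. A Mir802 score above 0 was found in 0.532% of them (95% Wilson interval 0.0940% to 2.95%), against 14.1% of the KO nuclei of C2 and 3.03% of the 10045 WT nuclei of C3. For 2900005J15Rik the same shares were 3.72% (1.82% to 7.48%), 35.6% and 12.7%. By library the WT shares in C2 were 4.76%, 5.17% and 1.49% for 2900005J15Rik, 3.17%, 17.2% and 7.46% for Cog6 and 1.59%, 0% and 0% for Mir802, from 58 to 67 nuclei each. The KO libraries had 34.3% to 37.1%, 41.7% to 43.5% and 12.5% to 16.4% there. By mean score the gap was smaller for Cog6, with 15, 51.2 and 21.4 in the WT and 52.7 to 56.8 in the KO libraries of C2, so that WT replicate 2 came close to KO.

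Depth differs in that comparison, so it was repeated in nuclei under 5000 fragments, where the medians were 1982 in WT and 3170 in KO. There the share above 0 in C2 was 3.37% of 178 WT and 20.6% of 2478 KO nuclei for 2900005J15Rik, 0.562% and 7.95% for Gm2762, 3.37% and 19.7% for Gm20750, 7.30% and 26.6% for Cog6 and 0.562% and 7.06% for Mir802. These shares pool the nuclei of 3 libraries and are a description with no test. The KO nuclei were still the deeper ones, and the rest of the depth gap was not removed. Intervals cover counting error only.

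The reverse minority was smaller. C3 held 74 KO nuclei, with a median of 2532 fragments, whose mean scores were 47.1 for Mir802, 39.1 for Cog6, 20.4 for 2900005J15Rik, 17.9 for Gm2762 and 14.1 for Gm20750. The 10045 WT nuclei of C3, with a median of 6492 fragments, had 8.53, 18.2, 12.9, 3.66 and 4.01 for the same genes. The shares above 0 were 12.2% (6.53% to 21.5%) in the KO and 12.7% in the WT nuclei of C3 for 2900005J15Rik, 18.9% (11.6% to 29.3%) and 16.8% for Cog6, and 6.76% (2.92% to 14.9%) and 3.03% for Mir802. They were 14.9% (8.51% to 24.7%) and 8.02% for Gm20750, and 8.11% (3.77% to 16.6%) and 3.68% for Gm2762. The intervals cover the counting error of the pooled KO nuclei and not the spread between libraries, so no difference is read from them. The KO nuclei were the shallower ones. Under 5000 fragments C3 held 60 KO and 3215 WT nuclei, with medians of 2235 and 3191 fragments. There the KO and WT shares were 5.00% and 5.85% for 2900005J15Rik, 15% and 8.52% for Cog6, and 3.33% and 1.03% for Mir802. For Gm20750 they were 13.3% (6.91% to 24.2%) and 3.92%, and for Gm2762 6.67% (2.62% to 15.9%) and 1.37%. These shares, too, pool the libraries and carry no test. The Mir802 mean rested on 5 of the 74 KO nuclei, with 0 in KO replicate 1 (17 nuclei), 112 in KO replicate 2 (20 nuclei) and 33.8 in KO replicate 3 (37 nuclei). In KO replicate 1, Gm2762 was at 0 too and Cog6 scored 12.3, below the WT nuclei of C3, while 2900005J15Rik scored 27.7 and Gm20750 16.9. For Mir802, Gm2762 and Cog6 the KO libraries thus did not all lie above WT in C3.

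Among Int nuclei, cluster C5 held both genotypes in number, 628 WT and 1677 KO nuclei with medians of 4081.5 and 4890 fragments. Mir802 scored 12.7, 10.2 and 8.69 in WT and 42.1, 38.3 and 42.5 in KO. 2900005J15Rik scored 10.5, 14.8 and 16.3 in WT and 31.3, 25.8 and 25.2 in KO. Cog6 scored 21.6, 15.1 and 10.6 in WT and 34.1, 34.1 and 31.1 in KO. In all 3 genes, and in Gm20750 (0.915 to 5.38 against 8.62 to 14.4) and Gm2762 (4.47 to 7.72 against 8.46 to 15.3), every KO library of C5 lay above every WT library. Of the 19454 genes with a mean of at least 5 in C5, 11.8% did so, and since the Int contrast chose the genes nothing is read from the count. Clusters C10 and C8 were nearly all KO and clusters C11 and C9 nearly all WT: Mir802 scored 39.2 to 57.7 in C10 and 41.3 to 58.2 in C8 (KO), and 11 to 11.5 in C11 and 7.77 to 9.99 in C9 (WT). Int nuclei of both genotypes also fell in C6 (2639 WT and 35 KO), C4 (39 and 35), C7 (22 and 21) and C1 (15 and 9), with at most 18 KO nuclei per library. In C6 the KO values were not above WT for every gene: Cog6 scored 16.7, 15.7 and 5.25 in KO and 16.7, 18.5 and 14.3 in WT, 2900005J15Rik 40.0, 10.6 and 6.48 against 19.0, 13.6 and 17.2, and Mir802 0, 0 and 102 against 11, 6.24 and 7.62. In C4 Gm20750 ran the other way, at 4.17, 8.35 and 43.2 in KO and 322, 56.2 and 65.2 in WT. Late nuclei of C1 (60 WT and 53 KO) also overlapped for Cog6, at 18.9, 19.6 and 42.6 in KO and 62.6, 5.47 and 37.2 in WT. The gain was thus not seen in every cluster that held both genotypes, and these small clusters rest on few nuclei.

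**Figure D2:**
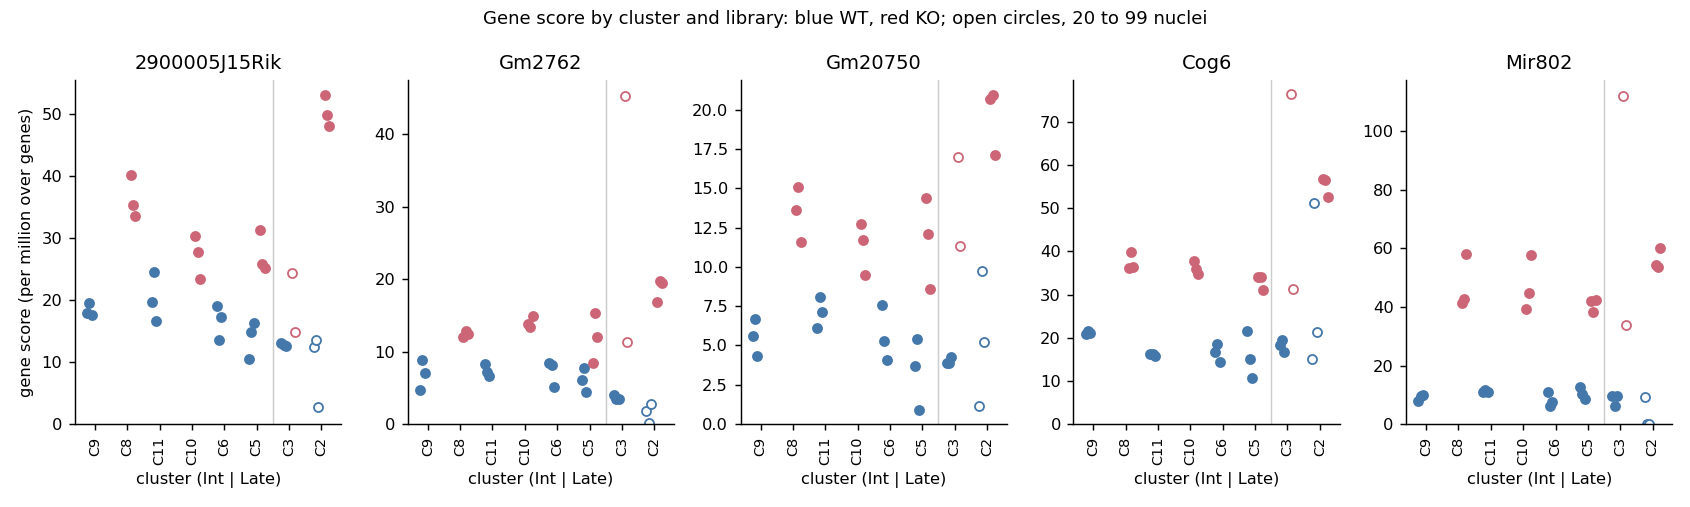
Gene score (from 0, own scale per gene) by the authors' cluster, with 1 point per library holding at least 20 nuclei, Int clusters left of the line and Late clusters right of it, and open circles for 20 to 99 nuclei. In C5 the KO points lie above the WT points for each gene, and in C2 the few WT nuclei score below the KO nuclei, as for Mir802 (9.25, 0 and 0 against 53.6 to 60.1).

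The gain in Late nuclei was mostly one of the number of nuclei with any score. A Cog6 score above 0 was found in 14.0% to 17.6% of Late nuclei in WT and 41.1% to 42.8% in KO libraries. For 2900005J15Rik the shares were 11.2% to 13.4% and 33.9% to 36.5%, and for Gm20750 7.67% to 8.00% and 30.7% to 33.0%. Gm2762 had a score in 2.89% to 4.11% of WT and 13.4% to 14.8% of KO nuclei, and Mir802 in 2.55% to 3.34% and 12.4% to 16.1%. The ratio of mean shares was 2.58 for Cog6, 2.88 for 2900005J15Rik, 3.93 for Gm2762, 4.10 for Gm20750 and 4.77 for Mir802. The mean score of the nuclei above 0 differed less, by ratios of 1.17, 1.34, 1.32, 1.18 and 1.44 in the same order of genes. A score of 0 in a nucleus can be a lack of fragments, so the shares are no counts of nuclei with an open gene.

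The difference was also measured within classes of depth. In Late nuclei with 5000 to 15000 fragments a Mir802 score was found in 3.16% to 4.05% of WT and 15.9% to 19.4% of KO nuclei. With under 5000 fragments the shares were 0.618% to 1.31% and 6.19% to 8.31%. For Cog6 they were 17.8% to 20.9% and 49.6% to 51.8% in the deeper class, and 7.75% to 9.47% and 25.0% to 27.1% in the shallower class. In every one of the 5 genes the lowest KO share was above the highest WT share in both classes. Over 15000 fragments, where Late libraries held 27 to 114 nuclei, the Late KO to WT ratios of mean scores were smaller. They were 2.16 for 2900005J15Rik, 2.69 for Gm2762, 3.11 for Gm20750, 2.59 for Cog6 and 2.98 for Mir802. In Int nuclei of that depth they were 1.55, 1.64, 1.72, 1.94 and 4.50, so that of Mir802 was larger in Int than in Late nuclei.

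**Figure D3:**
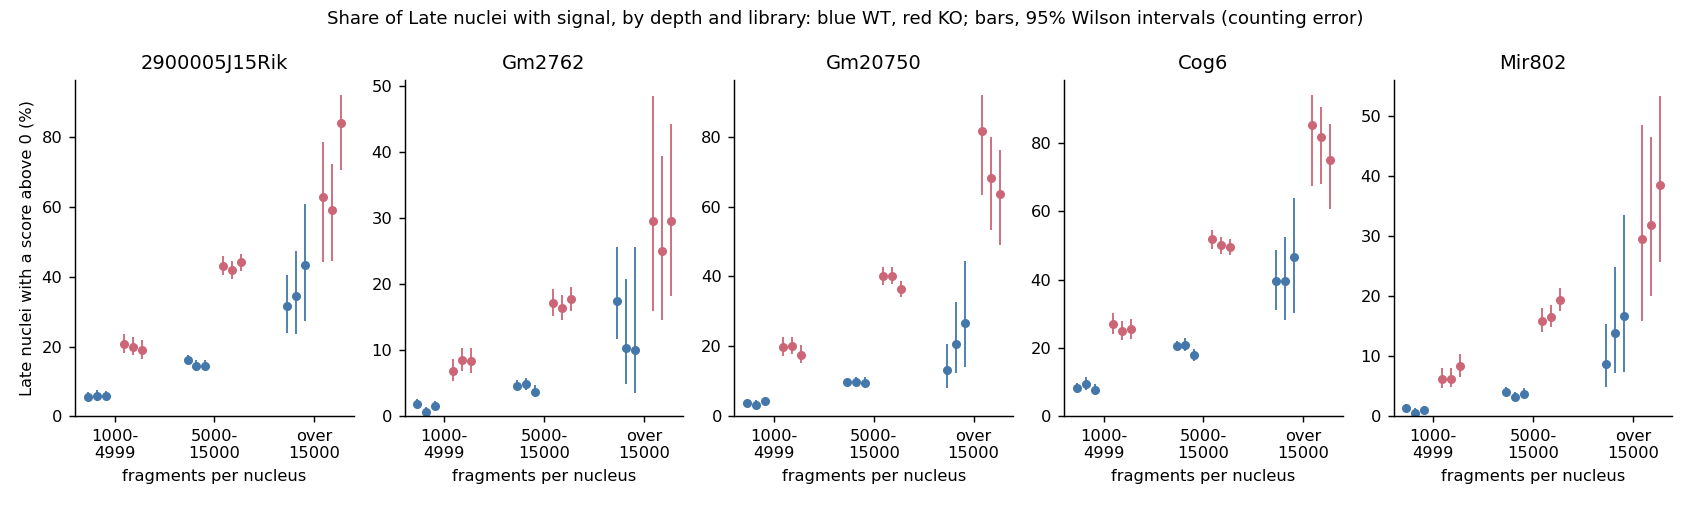
Share of Late nuclei with a gene score above 0 (percent, from 0, own scale per gene) in 3 classes of fragments per nucleus, with 1 point per library and 95% Wilson intervals for counting error. KO points lie above WT points in each class, as for Cog6 at 5000 to 15000 fragments (49.6% to 51.8% against 17.8% to 20.9%).

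Within the KO Late nuclei of 5000 to 15000 fragments, the scores of listed genes on different chromosomes were nearly unrelated across nuclei. Pearson's r lay between -0.05 and 0.07 over 9 pairs and 3 libraries. Only 15.9% to 19.4% of these nuclei had a Mir802 score above 0, and 16.4% to 17.7% a Gm2762 score. With so many values at 0, r can be held low, so independence of the gains is not read from it. Genes of 1 locus, which may share fragments, had r of 0.40 to 0.47 for Gm20750 with Cog6, 0.76 to 0.80 for 2900005J15Rik with Prkag2 and 0.51 to 0.53 for Mir802 with 1810053B23Rik. For Cog6 with Lhfp, whose starts are 24.3 kb apart, r was 0.04 to 0.11. For Gm2762 with Sptlc1, 16.3 kb apart, the KO libraries differed, with r of 0.09, 0.34 and 0.04 in replicates 1, 2 and 3. These values describe the scores and carry no test.

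Around the 5 genes, 25 of the 35 neighbours had a high enough score to be tested in Late nuclei. In KO, 16 of the 25 were higher and 1 was lower (limma with adjustment over all genes, threshold 0.05), where 32.9% of all genes were called higher and 18.5% lower. The neighbours may share fragments with the listed genes and with each other, so they are not taken as independent of them. Of the 25, Ror2 and Gm2447 had a WT mean below 5, passed the filter through their KO values and had to differ. Without them 14 of 23 neighbours were higher and 1 was lower, beside 29.9% and 19.6% of the 14990 genes whose WT mean was at least 5. Within 100 kb of a listed start 4 of 4 such neighbours were higher, and beyond 100 kb 10 of 19 were higher and 1 was lower. In Int nuclei 5 of 31 tested neighbours were higher and 1 was lower, where 12.7% and 7.10% of all genes were called.

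At the locus on chromosome 5, Prkag2 encodes a regulatory gamma subunit of the AMP-activated kinase and has more than 1 RefSeq promoter window. The window at chr5:25100643-25100892 shares 168 bases with that of 2900005J15Rik. Those at chr5:24995754-24996003 and chr5:24908510-24908759, inside the gene, share 0 bases. The part of each window in the score was not tested. Prkag2 scored 37.1, 33.1 and 33.5 in WT and 82.6, 76.3 and 77.8 in KO Late nuclei, with no overlap. The log2 difference was 1.17 ± 0.059 (SE, n = 3 libraries per genotype, limma adjusted p = 8.94e-09). In Int nuclei it scored 44.6, 43.4 and 35.8 in WT and 63.0, 57.0 and 53.1 in KO (log2 difference 0.48 ± 0.076, limma adjusted p = 3.60e-05), and the Int value was 0.30 after median centring. Prkag2os1, an antisense transcript inside Prkag2, was higher in Late nuclei (0.56, limma adjusted p = 0.000242) and not called in Int nuclei (0.079, adjusted p = 0.738). Its Late value was 0.25 under quantile normalization.

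Farther along chromosome 5 the differences were small. Smarcd3, a subunit of SWI/SNF remodelling complexes 499 kb away, was higher by 0.35 in Late and 0.44 in Int nuclei (limma adjusted p = 0.00506 and 0.0328). Under quantile normalization the Late value was 0.063 and the Int value 0.24, and neither passed. After median centring the Int value was 0.26, and its call was also lost in the depth window of 5000 to 15000 fragments (0.36) and without a variance trend (0.44). Crygn (0.31 in Late, 0.42 in Int) and Wdr86 (0.29 in Late) were called. The Int value of Crygn was 0.23 under quantile normalization and 0.24 after median centring, and neither passed. The Late calls of both were lost after median centring (0.24 for Crygn and 0.23 for Wdr86) and in the depth window of 5000 to 15000 fragments, that of Wdr86 also with nuclei weighted by fragments (0.21), and the Late values turned to -0.0009 (Crygn) and -0.048 (Wdr86) under quantile normalization. Calls were also lost on leaving out a library: that of Smarcd3 in Int nuclei without WT replicate 3, KO replicate 1 or KO replicate 3, that of Crygn in Int nuclei without WT replicate 1 or any 1 KO replicate, that of Crygn in Late nuclei without WT replicate 2, KO replicate 1 or KO replicate 2, and that of Wdr86 without WT replicate 1 or KO replicate 3. Rheb, the activator of the kinase mTORC1, Kmt2c, a histone methyltransferase, Nub1, Cct8l1, 1700022A21Rik and 1700096K18Rik were not called in Late nuclei (-0.072 to 0.023). Of these, 1700022A21Rik (-0.36) and Cct8l1 (-0.35) were called lower under quantile normalization, and 1700096K18Rik (-0.14) after median centring. 4831440E17Rik was lower by 0.12 on the log2 scale in Late nuclei with overlapping libraries (log2 difference -0.12, limma adjusted p = 0.0384), a call lost under 8 of 15 alternatives: quantile normalization, fragment weighting, no variance trend, the replicate block, and leaving out KO replicate 1 or 2 or WT replicate 1 or 2. Its Int difference was -0.16 (limma adjusted p = 0.0176), lost under quantile normalization, with no variance trend, and without WT replicate 2, KO replicate 1 or KO replicate 2, and it was -0.34 after median centring. Thus 5 of 12 tested neighbours were higher at this locus, near the 32.9% of all genes, and 3 of the 5 (Smarcd3, Crygn and Wdr86) lost the call under quantile normalization. The other two, Prkag2 and Prkag2os1, lay at or inside Prkag2.

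At the locus on chromosome 13, Sptlc1 lies 16.3 kb from Gm2762 and encodes a subunit of serine palmitoyltransferase, the first enzyme of sphingolipid synthesis. Its Late scores were 11.2, 10.9 and 10.7 in WT and 19.6, 17.5 and 14.3 in KO, a spread wider in KO but with no overlap (0.59 ± 0.11, SE, n = 3 per genotype, limma adjusted p = 0.000482). Under quantile normalization the value for Sptlc1 was 0.31. Ror2, a receptor for Wnt5a 108 kb away, had a log2 difference of 0.67 from a WT mean of 4.42 and, being kept through KO, is given with no test. Nfil3, a bZIP repressor 413 kb away, was higher by 0.35 (limma adjusted p = 0.00581), but by 0.06 and not called under quantile normalization. Auh, a mitochondrial enzyme of leucine breakdown, was not called (0.05, adjusted p = 0.403). In Int nuclei 0 of 7 neighbours were called there, where 12.7% of all genes were called higher and 7.10% lower, so this count is near the background, while Sptlc1 had 0.28 (limma adjusted p = 0.151).

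The shared locus of Gm20750 and Cog6 on chromosome 3 had 3 tested neighbours in Late nuclei. Gm2447 starts 188 kb from Gm20750 and scored 3.03, 2.86 and 3.86 in WT and 7.26, 8.71 and 6.73 in KO, so it too was kept through KO, and its log2 difference of 1.01 is given with no test. Nhlrc3 (0.26, limma adjusted p = 0.0147) and Proser1 (0.31, limma adjusted p = 0.00681), which start next to each other 446 kb and 447 kb from Cog6, were called higher but not under quantile normalization (0.13 and 0.15), and Nhlrc3 was also not called without WT or KO replicate 2. Lhfp, the gene nearest to Cog6, scored too low in Late nuclei to be tested (2.65 ± 0.398 in WT and 5.58 ± 0.760 in KO, SD, n = 3). In Int nuclei Lhfp was tested and had a log2 difference of 0.046 (limma adjusted p = 0.854), beside 1.02 for Cog6.

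At the locus on chromosome 16 the gain extended over the 2 nearest genes. 1810053B23Rik, a non-coding gene that starts 10.2 kb from Mir802, scored 9.34, 7.54 and 8.22 in WT and 32.6, 33.2 and 32.1 in KO Late nuclei. Its log2 difference was 1.85 ± 0.088 in Late (SE, n = 3 per genotype, limma adjusted p = 5.41e-09) and 1.48 ± 0.13 in Int nuclei (limma adjusted p = 3.52e-09). Like Mir802, it was well above WT in both classes, and its Late minus Int difference was 0.37 (limma adjusted p = 0.162). 1700029J03Rik, 89.2 kb from Mir802 on the other side, was higher by 1.08 in Late (limma adjusted p = 1.81e-06) and by 0.46 in Int nuclei (limma adjusted p = 0.0235), the latter value being 0.28 under quantile normalization or median centring and its call lost without WT replicate 1 or any 1 KO replicate. More than 200 kb away, 2310043M15Rik was higher by 0.43 (0.25 and not called under quantile normalization) and Dop1b, inside which it starts, by 0.18 (0.11 and not called after median centring). Cbr3, a carbonyl reductase, was higher by 0.27 (limma adjusted p = 0.0324) but had -0.061 under quantile normalization and was not called after median centring (0.21), with nuclei weighted by fragments (0.17), or without WT replicate 1, WT replicate 3, KO replicate 1 or KO replicate 2, and Morc3 was not called (-0.051).

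**Figure D4:**
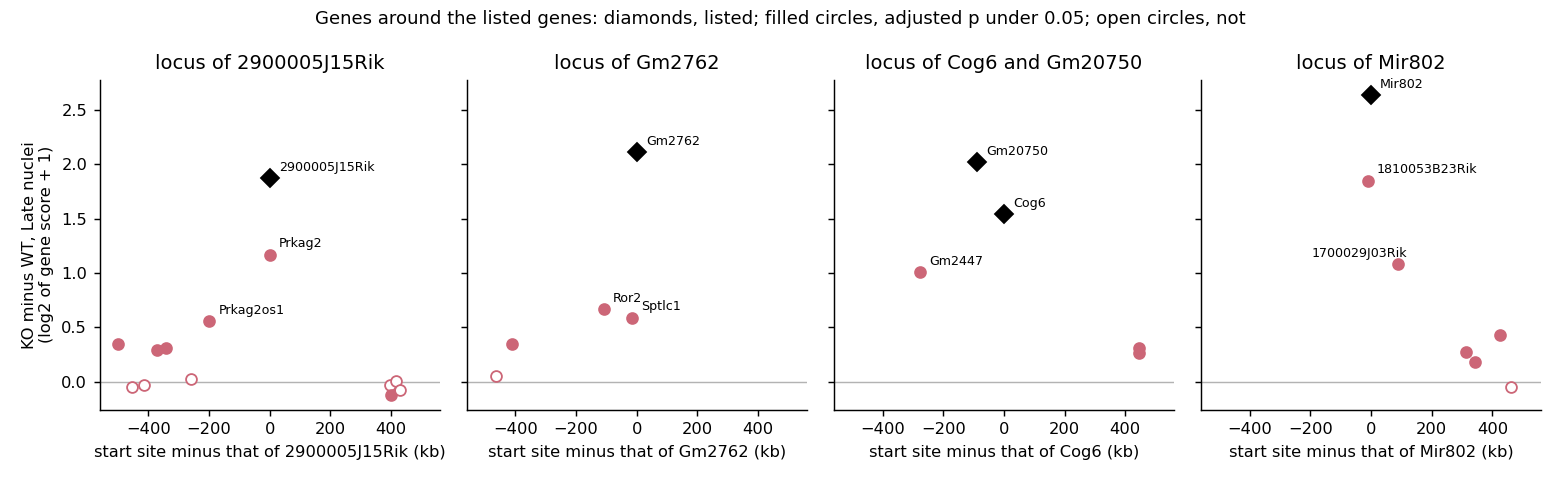
KO minus WT log2 difference of the gene score in Late nuclei (vertical axis) against the distance of each start from the listed gene's start (kb, horizontal axis) at the 4 loci, with listed genes as diamonds and neighbours as circles filled where the limma adjusted p is under 0.05. Ror2 and Gm2447 are filled too, but they passed the filter through their KO values, so their fill is not read as a test. The listed genes, which were chosen on this contrast, have 1.54 to 2.64, the neighbour 1810053B23Rik has 1.85, and the 18 tested neighbours beyond 200 kb reach at most 0.43.

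Across these loci, and leaving out Ror2 and Gm2447, 5 of the 14 neighbours called higher in Late nuclei kept the call under every alternative in which they were tested. These were Prkag2, Prkag2os1, Sptlc1, 1810053B23Rik and 1700029J03Rik, all within 200 kb of a listed start. In Int nuclei the same held for 2 of 5, Prkag2 and 1810053B23Rik. The share of all called genes that kept the call in this way was not determined. Nothing is therefore read from these counts or from the distances.

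For the protein-coding Cog6, the other 7 genes of the COG complex lie elsewhere in the genome. In Late nuclei 1 of the 7 was higher in KO, 3 were lower and 3 were not called, where 32.9% of all genes were called higher and 18.5% lower. Cog8 scored 39.4, 37.4 and 35.3 in WT and 50.5, 45.9 and 52.7 in KO Late nuclei, without overlap (0.40 ± 0.066, SE, n = 3 per genotype, limma adjusted p = 0.000242). Cog4 was lower at 52.1 ± 1.21 in KO against 62.3 ± 1.15 in WT (-0.25, limma adjusted p = 0.000900), and Cog3 at 48.3 ± 4.95 against 59.0 ± 3.18 (-0.29, limma adjusted p = 0.00399). Cog1 was lower as well (-0.17, limma adjusted p = 0.0405), a call lost under 8 of 15 alternatives, among them the removal of WT replicate 1 or 2 or of KO replicate 2 or 3. Cog2, Cog5 and Cog7 had log2 differences of 0.10, 0.11 and 0.19 and were not called. In Int nuclei Cog8 was higher (0.26, limma adjusted p = 0.0248) and Cog3 lower (-0.19, limma adjusted p = 0.0350), where 12.7% of all genes were called higher and 7.10% lower, and both calls were lost under several alternatives. For Cog8 these included leaving out WT replicate 3 or KO replicate 1, and for Cog3 leaving out WT replicate 1, KO replicate 2 or KO replicate 3. Over the alternatives the Int value ranged from 0.082 to 0.33 for Cog8 and from -0.36 to -0.15 for Cog3. The median log2 difference of the 8 genes was 0.10 in Late nuclei, beside 0.052 for all genes.

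**Figure D5:**
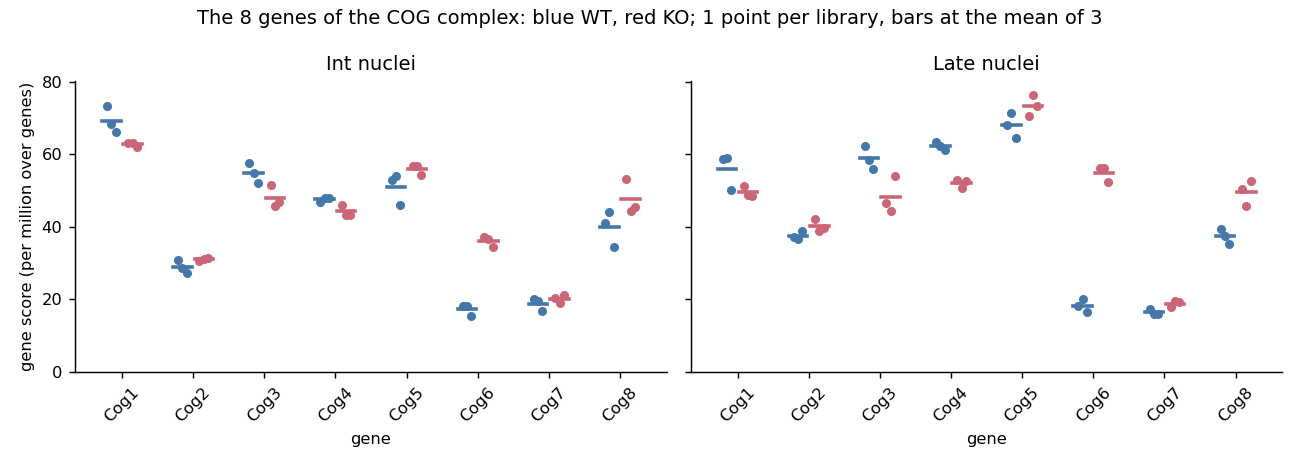
Gene score (from 0) of the 8 COG complex genes in Int and Late nuclei, with 1 point per library and bars at the mean of 3. Cog6, which was chosen on these contrasts and carries no test, has the widest gap between KO and WT in both classes (54.9 against 18.3 in Late nuclei). Among the other genes of the complex, Cog8 alone was called higher.

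Mir802 and the long non-coding RNA genes belong to symbol classes that the score covers broadly. Of 690 microRNA genes tested in Late nuclei 37.7% were higher in KO, and of 858 in Int nuclei 15.2% were. Genes with provisional symbols (Gm numbers or names ending in Rik) were higher in 37.7% of 1320 in Late and in 11.2% of 2127 in Int nuclei. These shares lie near the 32.9% and 12.7% of all genes, and the median log2 differences in Late nuclei were 0.14 and 0.11.

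Over the 12 library values in Int and Late nuclei, the log2 scores of the 5 listed genes moved together, with Pearson's r of 0.905 to 0.991 over the 10 pairs. These values share the genotypes and the libraries, and they are a description. The genes outside the locus with the highest r were Ankrd44, Fam84b and 1600002D24Rik for Gm2762 (0.969 to 0.985), and Ecm1, Fpgt and Lao1 for 2900005J15Rik (0.973 to 0.979). For Gm20750 they were 4930554I06Rik, Prkag2 and Ppp3ca, a catalytic subunit of calcineurin (0.980 to 0.987). Those most like Cog6 were Nudt16, a nucleotide hydrolase, Utrn, which encodes utrophin, and Actrt2 (0.987 to 0.990), and among those most like Mir802 were 1700047L14Rik (0.986) and Acot7 (0.983). Of these, Ankrd44 scored 11.1 ± 0.262 in WT and 44.0 ± 1.64 in KO Late nuclei, and Nudt16 scored 21.2 ± 1.56 and 67.9 ± 1.56 (SD, n = 3 each).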

How the data were processed

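The authors deposited a gene score table, a signal per gene and nucleus in which each nucleus summed to between 9999.855 and 10000.12, and a table of nuclei with the count of ATAC fragments, the share of ends in peaks as a fraction, the class and the cluster, per the file headers. Cell Ranger and mm10 are named in the submitters' processing notes; how fragments were weighted by distance is not given in the sources used here. The table listed each of 34073 nuclei 2 times, and 1 copy was used. Scores were averaged per library and class, rescaled to 1000000, and genes with a mean of at least 5 were kept. Log2(score + 1) values were compared with limma 3.58.1 in R 4.3.3 (lmFit, eBayes with trend, two-sided, Benjamini-Hochberg over all genes). The Late minus Int difference was fitted on within-library differences. Early nuclei were compared by exact permutation (scipy 1.17.1). The fit was tried on simulated data in which few genes were changed. Many more genes were called here, so that trial does not check these calls. The members and lists were chosen with earlier results of these data known. Named genes were the listed genes, all genes within 500 kb, the 3 most alike per listed gene, the COG complex, Stag2, Stag1 and Runx1. Of the most alike genes, 1 is not reported here. The deposited table of nuclei holds a doublet enrichment score, with a median per library of 0.489 to 0.756 in WT and 0.571 to 0.829 in KO Late nuclei; no nucleus was removed on it here, and no doublet caller was run. Libraries were treated as unpaired, since the correlation of deviations of same-numbered libraries was 0.087, 0.045 and 0.051 in Late and 0.13, -0.084 and 0.19 in Int nuclei, so not every pair was over 0.1.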

Additional observations from a re-analysis of the deposited data

Results flagged for a closer look

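Prkag2 was the only neighbour called for a KO effect that differed between Late and Int nuclei by the limma test of the difference itself, out of 25 neighbours tested. Its log2 difference was 1.17 in Late and 0.48 in Int nuclei, and the difference of the effects was 0.69 (limma adjusted p = 0.0410), where 0.195% of all genes were called higher. The calls for this difference over all genes ranged from 0 without KO replicate 2 to 819 without WT replicate 3. The change from Int to Late was -0.26, -0.38 and -0.09 in WT and 0.39, 0.41 and 0.54 in KO replicates 1, 2 and 3, so every library of a genotype moved one way. The call was lost under 7 of 15 alternatives, with adjusted p-values of 0.00300 to 0.201 over all of them. These 7 were no filter, nuclei with 5000 to 15000 fragments, and leaving out WT replicate 1, WT replicate 2, KO replicate 1, KO replicate 2 or KO replicate 3. The value itself stayed between 0.62 and 0.77. Among the other neighbours, Gm2447, kept through its KO values, had a Late minus Int difference of 0.76. That of 1700029J03Rik was 0.62 (limma adjusted p = 0.0736). The call thus does not set Prkag2 apart from them by size. The 250-base promoter window at the outermost start of Prkag2 shares 168 bases with that of the listed gene 2900005J15Rik. The other RefSeq promoter windows of Prkag2 share 0. The listed gene 2900005J15Rik was chosen on this contrast. The scores of both had r of 0.76 to 0.80 across KO Late nuclei of 5000 to 15000 fragments. The adjusted p of Prkag2 is thus not independent of that choice.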

How the results depend on the processing

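Each of the 5 listed genes was higher in KO under every alternative run in Late, Int and Early nuclei. The alternatives reuse the libraries that chose the genes, so this is a description and no support for the gain. In Late nuclei Gm2762 and Gm20750 had 14 alternatives and the others 15, since these 2 genes did not pass the filter at 20. The Late log2 difference ranged from 1.62 to 1.91 for 2900005J15Rik, 1.46 to 2.18 for Gm2762, 1.44 to 2.11 for Gm20750, 1.37 to 1.61 for Cog6 and 2.21 to 2.75 for Mir802, with the lowest values at a pseudocount of 5. Of 1165 values of neighbours under alternatives, 1085 kept their side of the threshold, 60 lost the call and 16 gained it. The other 4 changed sign with a call in 1 of the 2 fits, under quantile normalization in Late nuclei: Wdr86 (-0.048), Crygn (-0.0009), Cct8l1 (-0.35, not called at first) and Cbr3 (-0.061). Of the 1085, 67 changed sign without a call in either fit. The cause was not tested. The number of genes called was 8161 in Late nuclei and 4560 with a filter at 20, and 3858 in Int nuclei, 1921 without a variance trend and 2547 to 4782 leaving out each library in turn, lowest without KO replicate 1. The Late minus Int difference had 35 calls, and 120 with a pseudocount of 5, 218 with a filter at 20, 6 with no filter, 199 after quantile normalization, 279 after median centring, 170 with nuclei weighted by their fragments, 3 with 5000 to 15000 fragments and 206 without a variance trend. It ranged from 0 to 819 leaving out each library in turn, with 0 without KO replicate 2 (limma, 1838 genes at an unadjusted p under 0.05) and 819 without WT replicate 3. With the replicate block the calls were 7982 in Late, 4527 in Int and 12 for the difference. In Late nuclei each WT library lay closest to the KO library of its own number, a hint from the data only. The share of calls that were higher in KO was 64.0% in Late nuclei, 46.5% after quantile normalization and 47.9% after median centring, and 64.2%, 50.7% and 24.4% in Int nuclei, where median centring moved the median of all genes from 0.057 to -0.12. That share was 41.0% in Late nuclei with a filter at 20, 74.8% there with no filter, and 81.1% in Int nuclei without a variance trend. The window of 5000 to 15000 fragments could not be run for Early nuclei, of which 3 libraries had 0 there.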

Other observations

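Runx1, a master regulator of blood formation, starts on the chromosome of Mir802 beyond the 500 kb window. It scored 180 ± 9.35 in WT and 194 ± 1.54 in KO Late nuclei (SD, n = 3 each), a log2 difference of 0.10 (limma adjusted p = 0.0566), and 137 ± 7.49 and 144 ± 2.22 in Int nuclei (0.065, limma adjusted p = 0.376). These stand beside 2.64 and 2.04 for Mir802.

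In Late nuclei 10 neighbours scored too low to be tested. All 3 KO libraries lay above all 3 WT libraries in 8 of them, as they did in 53.8% of the 8141 genes with a Late mean under 5 and above 0, and the ratio of means was 1.11 to 2.87 over the 10. Msx2, a homeobox gene 79.1 kb from Gm2762, scored 1.20, 1.45 and 1.27 in WT and 3.36, 4.81 and 3.08 in KO. Galntl5, 80.5 kb from 2900005J15Rik, scored 1.47, 1.95 and 1.67 in WT and 4.04, 3.72 and 3.18 in KO. These values are at the lower end of the score and carry no test.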
